A study of Mus musculus with 9 samples.

Results

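Plag1, Chchd7, Bex1, Sult1a1, Lst1, Gm11837 and Gprasp2 are 7 of the 22180 genes measured in long-term haematopoietic stem cells of mice with an activated Jak2 allele, with or without Ezh2. They were picked from the array values themselves, as genes whose mean signal was lower in Jak2VF than in WT and, in Jak2VF_Ezh2KO, back near or above WT. Every difference between the 3 groups in these 7 genes is therefore a description and carries no test. Read strictly, the choice does not hold for Bex1 and Sult1a1, whose Jak2VF_Ezh2KO means lay 0.16 and 0.03 below the WT means on the log2 scale.

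The study compared 3 genotypes on the C57BL/6 background with 3 biological replicates and 1 expression array each. Jak2VF_Ezh2KO stands for the genotype MxCre Jak2VF/+ EZH2-/-, Jak2VF for MxCre Jak2VF/+, and WT for the control mice, for which the labels do not say whether they carried MxCre. All 3 groups, controls included, were injected with pI-pC when 4 weeks old, in 5 doses of 300 µg each, and bone marrow was taken 12 weeks later. The sort kept Lin- cells positive for Sca-1 and c-kit and negative for CD34 and CD135, and 10 ng of RNA was amplified for each array. The Mx promoter that drives Cre responds to interferon and is not restricted to blood cells, and the sources used here do not say whether a replicate was 1 mouse or a pool. All values are log2 signals as deposited by the authors, so a difference of 1 is a 2-fold change, and 3 arrays per group limit the precision of each of them.

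Jak2 is the kinase behind the thrombopoietin and erythropoietin receptors, and its activated form drives myeloproliferative disease through STAT transcription factors. Ezh2 is a catalytic subunit of Polycomb repressive complex 2 (PRC2), which methylates histone H3 at lysine 27 and keeps genes silent. Plag1 encodes a zinc-finger transcription factor of embryonic growth that acts as an oncogene when it is switched on by rearrangement, as in human salivary gland adenomas. Chchd7, the gene next to it, encodes a small mitochondrial protein with paired cysteine motifs and is one of the PLAG1 fusion partners in those human tumours.

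Ezh2 itself, the deleted gene, read 8.47, 8.08 and 8.42 in Jak2VF_Ezh2KO, 8.87, 9.09 and 8.78 in Jak2VF, and 8.48, 8.81 and 8.69 in WT. All 3 Jak2VF_Ezh2KO arrays were below all others, but the difference of -0.59 ± 0.16 (SE) from Jak2VF did not pass in limma (adjusted p = 0.411), and no source used here says whether the probes lie in the deleted exons. The signal of the Y-linked gene Eif2s3y was 7.54 and 8.18 in Jak2VF_Ezh2KO replicates 1 and 2 and 3.34 to 4.48 on the 7 other arrays. Xist, which is transcribed from the inactive X chromosome, was at 4.86 and 4.56 in the same 2 arrays and at 10.84 to 11.31 elsewhere, so sex was not balanced between the groups. The mean of 6 measured markers of long-term stem cells was 7.55 to 7.82 in Jak2VF_Ezh2KO, 7.45 to 7.49 in Jak2VF and 7.76 to 7.84 in WT, so that the list mean was lowest in Jak2VF. Singly, only Procr and Mecom had all Jak2VF arrays below all others, Mecom by a gap of 0.003 from Jak2VF_Ezh2KO. Kit, Hlf, Slamf1 and Fgd5 overlapped between Jak2VF and at least 1 other group. Of these markers Kit read 9.43 to 10.18 over the 9 arrays, while Cd34, whose protein the sort left out, read 9.91 to 10.68. The mean of 5 megakaryocyte and platelet markers separated Jak2VF the other way, at 6.83 to 7.21 in Jak2VF_Ezh2KO, 7.49 to 7.85 in Jak2VF and 7.19 to 7.42 in WT. Of these markers only Itga2b separated Jak2VF from both other groups, with 8.07, 8.51 and 8.31 in Jak2VF. Itga2b had 7.08, 6.59 and 6.85 in Jak2VF_Ezh2KO and 6.86, 7.41 and 7.10 in WT. Pf4, Ppbp, Gp9 and Gp6 each overlapped between Jak2VF and at least 1 other group. The mean of 6 T and NK cell markers was 6.79 to 7.39 in Jak2VF_Ezh2KO, 6.03 to 6.35 in Jak2VF and 6.10 to 6.35 in WT, with Il7r, Klrd1 and Ccl5 higher on all 3 Jak2VF_Ezh2KO arrays and Cd3e at 4.72 to 5.16 throughout. Nkg7, of the same list, had 9.01, 8.96 and 9.36 in Jak2VF_Ezh2KO, 9.62, 10.13 and 9.82 in Jak2VF, and 8.85, 9.47 and 8.86 in WT, so it was highest in Jak2VF. The mean of 6 neutrophil markers was 5.32 to 6.93 in Jak2VF_Ezh2KO, 4.86 to 5.45 in Jak2VF and 4.86 to 5.50 in WT, and that of 6 mast cell and basophil markers was 6.92 to 7.34 in Jak2VF_Ezh2KO, 6.52 to 7.11 in Jak2VF and 5.73 to 5.96 in WT. The highest neutrophil mean was that of Jak2VF_Ezh2KO replicate 3, which read highest in S100a8 (9.91), S100a9, Ngp and Camp (6.05) but not in Ltf and Elane. The same array also read highest in the B cell markers Cd79a (6.74), Ebf1, Vpreb1 and Pax5, but not in Cd79b. The mean of 6 monocyte and macrophage markers was 5.51 to 6.21 in Jak2VF_Ezh2KO, 6.18 to 6.87 in Jak2VF and 5.43 to 6.17 in WT. Jak2VF was thus above WT on all arrays and overlapped with Jak2VF_Ezh2KO, but no single marker of this list separated Jak2VF from WT. The list means of erythroid, B cell and stromal markers overlapped between Jak2VF and at least 1 other group. The part of these cell types in the results on the 7 genes was not tested. In bulk RNA, fewer cells that express a gene and less of its RNA per cell cannot be told apart.

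Plag1 had 7.67, 8.22 and 8.50 in Jak2VF_Ezh2KO, 6.23, 6.14 and 6.15 in Jak2VF, and 7.48, 7.33 and 7.69 in WT. The 3 Jak2VF arrays lay within a narrow band far below all others, whereas Jak2VF_Ezh2KO and WT overlapped, since Jak2VF_Ezh2KO replicate 1 was just below WT replicate 3. The means were 8.13 ± 0.42 in Jak2VF_Ezh2KO, 6.17 ± 0.05 in Jak2VF and 7.50 ± 0.18 in WT (SD, n = 3 each). Plag1 was thus 3.88-fold higher in Jak2VF_Ezh2KO than in Jak2VF, 2.51-fold lower in Jak2VF than in WT, and 1.55-fold higher in Jak2VF_Ezh2KO than in WT. With the Y-linked signal of each array as a covariate, the last difference was 0.99 on the log2 scale, against 0.63 without it. Only Jak2VF_Ezh2KO replicates 1 and 2 had high Y-linked signal. With this covariate, here and below, the Jak2VF_Ezh2KO value therefore rests mainly on replicate 3.

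Chchd7 had 8.65, 8.57 and 8.81 in Jak2VF_Ezh2KO, 7.73, 7.70 and 7.84 in Jak2VF, and 7.87, 7.97 and 7.93 in WT. All 3 Jak2VF_Ezh2KO arrays were above all others, and the Jak2VF arrays were below the WT arrays by a gap of only 0.04. Chchd7 was 1.89-fold higher in Jak2VF_Ezh2KO than in Jak2VF and 1.68-fold higher than in WT, but only 1.12-fold lower in Jak2VF than in WT. On the log2 scale Chchd7 had 0.92 and Plag1 1.95 for Jak2VF_Ezh2KO minus Jak2VF, whereas for Jak2VF minus WT Chchd7 had -0.16 and Plag1 -1.33.

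Gm11837 is a predicted gene on the same chromosome, with 140 annotated genes between it and Plag1. It had 7.47, 7.12 and 6.95 in Jak2VF_Ezh2KO, 6.05, 6.00 and 5.79 in Jak2VF, and 6.75, 6.58 and 6.87 in WT. The 3 groups did not overlap, with Jak2VF_Ezh2KO highest and Jak2VF lowest. The difference was 1.24 for Jak2VF_Ezh2KO minus Jak2VF, -0.79 for Jak2VF minus WT and 0.45 for Jak2VF_Ezh2KO minus WT, the last of which was 0.24 with the Y-linked signal as a covariate.

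Lst1 encodes a small membrane protein of leukocytes and lies in the major histocompatibility complex (MHC) class III region on chromosome 17. It had 10.41, 10.62 and 10.93 in Jak2VF_Ezh2KO, 8.87, 9.02 and 9.27 in Jak2VF, and 9.54, 10.01 and 9.34 in WT. All 3 Jak2VF_Ezh2KO arrays were above the WT arrays, and the highest Jak2VF array was 0.08 below the lowest WT array. Lst1 was 3.03-fold higher in Jak2VF_Ezh2KO than in Jak2VF and 2.03-fold higher than in WT, and 1.50-fold lower in Jak2VF than in WT. Its gain over WT was the largest among the 7 genes.

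Bex1 and Sult1a1 came back to about the WT signal. The Gprasp2 mean was 0.32 above WT in Jak2VF_Ezh2KO, with overlapping arrays, and -0.053 from WT with the Y-linked signal as a covariate. Bex1, a small X-linked adaptor protein first described in brain, had 8.91, 8.70 and 8.77 in Jak2VF_Ezh2KO, 8.19, 7.89 and 7.80 in Jak2VF, and 8.83, 8.83 and 9.21 in WT. The Jak2VF arrays were all lower, and the other groups overlapped. Bex1 was 1.78-fold higher in Jak2VF_Ezh2KO than in Jak2VF and 1.99-fold lower in Jak2VF than in WT.

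Sult1a1, a cytosolic sulfotransferase that conjugates phenols, had 7.68, 7.75 and 7.45 in Jak2VF_Ezh2KO, 6.04, 6.31 and 6.78 in Jak2VF, and 7.52, 7.45 and 8.004 in WT. Its Jak2VF arrays were again all below the rest, with means of 7.63 ± 0.16 in Jak2VF_Ezh2KO, 6.38 ± 0.38 in Jak2VF and 7.66 ± 0.30 in WT (SD, n = 3 each). The Jak2VF_Ezh2KO and WT means differed by 0.03, less than either SD, and its sign turned without WT replicate 3 (0.14), without Jak2VF_Ezh2KO replicate 3 (0.052) and with median centring (0.0095).

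Gprasp2, which binds G protein-coupled receptors and directs their sorting after uptake, had 8.57, 8.36 and 7.99 in Jak2VF_Ezh2KO, 6.67, 7.19 and 7.77 in Jak2VF, and 8.11, 7.92 and 7.92 in WT. The Jak2VF arrays were below all others but spread more widely (SD 0.55) than those of the other members, and Jak2VF_Ezh2KO and WT overlapped. The difference for Jak2VF minus WT was -0.77, and -0.50 without Jak2VF replicate 1. Gprasp2 was the only member measured by more than 1 probe set. The probe set with the lower signal had 6.39, 5.95 and 6.33 in Jak2VF_Ezh2KO, 5.54, 5.39 and 5.95 in Jak2VF, and 5.46, 6.31 and 6.06 in WT. Its Jak2VF arrays overlapped the WT arrays, and its mean differences were 0.60 for Jak2VF_Ezh2KO minus Jak2VF and -0.32 for Jak2VF minus WT, so the separation of Jak2VF seen with the brighter probe set was not seen with this one.

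**Figure D1:**
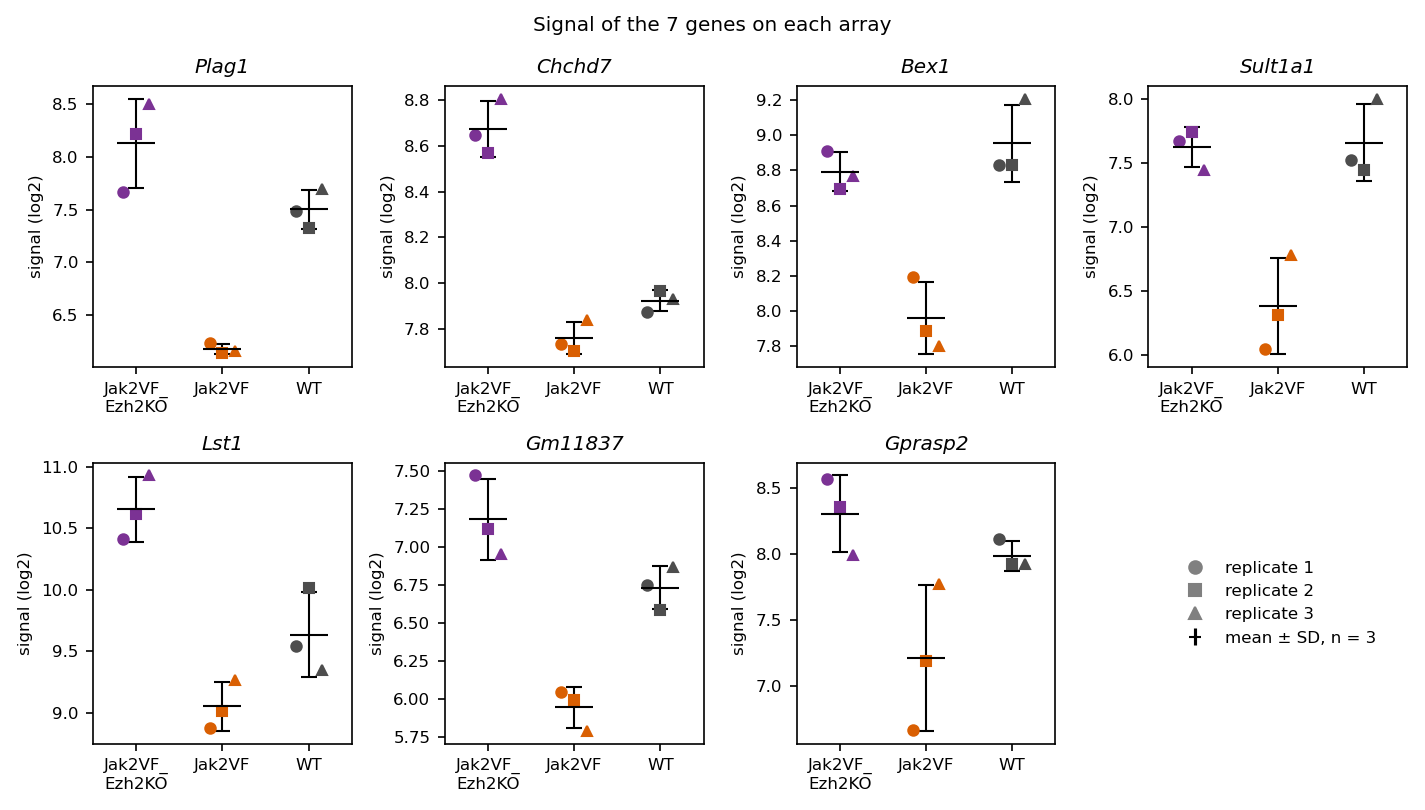
Log2 signal of the 7 genes (y axes, each with its own range) on the 3 arrays of Jak2VF_Ezh2KO, Jak2VF and WT. Markers are single arrays by replicate and bars are mean ± SD (n = 3). The Jak2VF arrays are the lowest in each panel, by as little as 0.04 from WT for Chchd7.

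In all 7 genes every Jak2VF array was below every WT array and every Jak2VF_Ezh2KO array, an arrangement found in 142 of 22180 genes (0.64%). By single comparison, all Jak2VF_Ezh2KO arrays were above all Jak2VF arrays in 4.18% of genes, and all Jak2VF arrays were below all WT arrays in 2.57%. The means alone had the pattern of the choice in 12.0% of genes. Since the choice used these values, nothing is read from these shares. Jak2VF_Ezh2KO was above every WT array in 3 of the 7, namely Chchd7, Lst1 and Gm11837, against 6.28% of all genes. The choice used this comparison too, so nothing is read from that share either. The differences ranged from 0.83 to 1.95 with a median of 1.24 for Jak2VF_Ezh2KO minus Jak2VF, from -1.33 to -0.16 with a median of -0.79 for Jak2VF minus WT, and from -0.16 to 1.02 with a median of 0.45 for Jak2VF_Ezh2KO minus WT. The medians over all 22180 genes were -0.04, 0.03 and -0.02. The mean of the 7 genes per array was 8.48, 8.47 and 8.49 in Jak2VF_Ezh2KO, 7.11, 7.18 and 7.34 in Jak2VF, and 8.02, 8.01 and 8.14 in WT.

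Both differences from Jak2VF were positive, that is Jak2VF_Ezh2KO and WT were both higher, in 5423 genes. Ordered by the smaller of the 2 differences, Plag1 came at position 1 with 1.33, Sult1a1 at 2 with 1.25, Bex1 at 12 with 0.83, Gm11837 at 15 with 0.79, Gprasp2 at 16 with 0.77 and Lst1 at 55 with 0.58. Chchd7 stood at position 1280 with 0.16, far from the other 6. Among named genes outside the group, S100a8, a granule protein of neutrophils, held position 4 with 1.16, and Emcn, a sialomucin of endothelium and stem cells, held position 5 with 1.10. Klf12, H2bc9 and Abcg3 followed at 8, 9 and 10 with 0.90, 0.87 and 0.87. S100a8 had 7.75, 6.74 and 9.91 in Jak2VF_Ezh2KO, 4.26, 5.31 and 6.27 in Jak2VF, and 7.41, 6.79 and 5.13 in WT. Its Jak2VF_Ezh2KO arrays were above its Jak2VF arrays, and its WT arrays overlapped those of both other groups. Emcn had 7.19, 6.63 and 7.74 in Jak2VF_Ezh2KO, 6.43, 5.92 and 5.92 in Jak2VF, and 7.43, 7.63 and 7.43 in WT, with the Jak2VF arrays below all others.

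**Figure D2:**
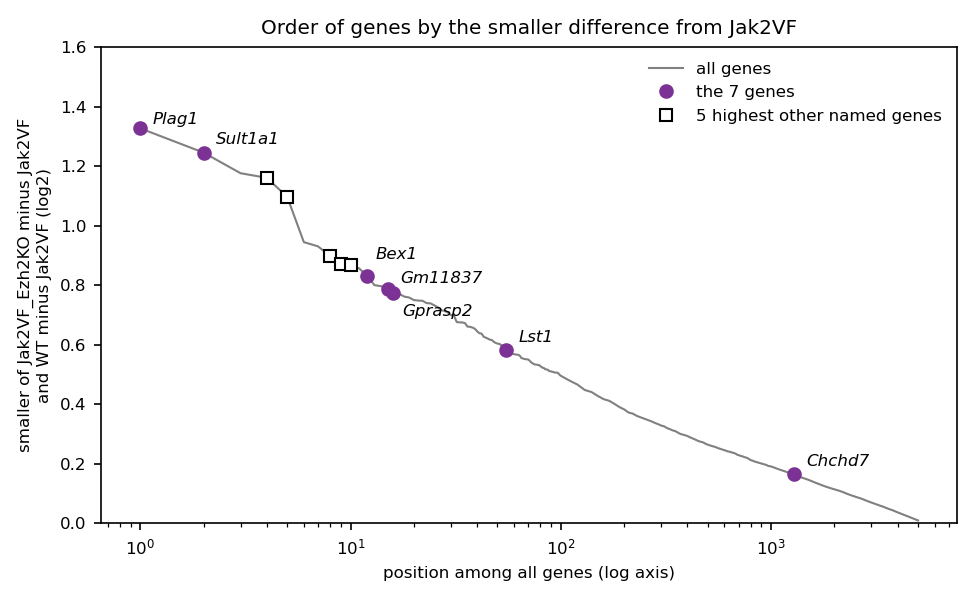
Smaller of Jak2VF_Ezh2KO minus Jak2VF and WT minus Jak2VF (y axis, log2) against a gene's position in that order (x axis, log scale). Filled points are the 7 genes, open squares the 5 highest named genes outside them, and the line all genes with a value above 0. Plag1 and Sult1a1 hold positions 1 and 2, and Chchd7 position 1280.

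Over the 21 pairs the Pearson correlation across the 9 arrays ranged from 0.47 to 0.95 with a median of 0.80, which the choice on group means sets in large part. After each group's mean was subtracted, the correlations ranged from -0.90 to 0.72 with a median of 0.002, and 11 of 21 were positive. Plag1 and Chchd7 had 0.33, Sult1a1 and Gprasp2 0.72, and Lst1 and Gm11837 -0.90, each over 9 values from the same arrays.

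The patterns most like that of Plag1 were sought by Pearson correlation over the 9 arrays among the 349 genes whose group means spanned at least 1 log2 unit. Tox, a nuclear HMG-box protein of lymphocyte development, came highest with 0.91, followed by Gm11837 with 0.88, Abcg3 with 0.88, Lst1 with 0.87, Klf12 with 0.86 and Sult1a1 with 0.84. Klrd1 (0.82), Klre1 (0.81), Il7r (0.79) and Id2 (0.79) completed the 10, and 2 genes of kinds that were not named stood above the last of them. With Spearman in place of Pearson correlation, 7 of the 10 were kept. Abcg3 then came first with 0.95 and Tox shared rank 3, while Klf12, Il7r and Sult1a1 had ranks 11, 17 and 21 of the 349. Tox had 7.41, 7.13 and 7.64 in Jak2VF_Ezh2KO, 5.85, 6.29 and 6.49 in Jak2VF, and 6.84, 6.88 and 7.12 in WT, with no overlap between the groups. Klrd1 and Il7r are also among the T and NK cell markers named above. Il7r, a cytokine receptor chain, had 6.05, 7.25 and 7.33 in Jak2VF_Ezh2KO, 5.57, 4.80 and 4.40 in Jak2VF, and 5.19, 5.57 and 5.04 in WT, so that its Jak2VF and WT arrays overlapped. All these correlations share the same 9 arrays and 3 group means.

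Promoter sequences from RefSeq (GRCm38.p6, 250 bases before to 50 after the start) were held for 3 of the 7 genes, namely Bex1, Gprasp2 and Sult1a1. They are shown because Plag1 is a DNA-binding factor and Jak2 acts through STAT factors, 5′ to 3′ on the gene's strand, with matches to the PLAG1 consensus in capitals. The Bex1 window lies at chrX:136215464-136215763 on the minus strand, the Gprasp2 window at chrX:135838784-135839083 on the plus strand and the Sult1a1 window at chr7:126676369-126676668 on the minus strand.
Bex1: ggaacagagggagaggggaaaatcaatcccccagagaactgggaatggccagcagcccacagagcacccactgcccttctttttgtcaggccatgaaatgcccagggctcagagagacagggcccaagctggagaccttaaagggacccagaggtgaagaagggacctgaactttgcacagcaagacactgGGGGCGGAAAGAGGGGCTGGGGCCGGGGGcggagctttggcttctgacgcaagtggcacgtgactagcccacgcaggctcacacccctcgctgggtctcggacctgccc
Gprasp2: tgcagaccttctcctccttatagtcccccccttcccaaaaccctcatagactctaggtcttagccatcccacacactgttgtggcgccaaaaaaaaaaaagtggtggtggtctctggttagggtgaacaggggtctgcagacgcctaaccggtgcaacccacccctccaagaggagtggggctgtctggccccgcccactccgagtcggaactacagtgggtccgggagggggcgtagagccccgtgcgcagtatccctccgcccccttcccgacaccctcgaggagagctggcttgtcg
Sult1a1: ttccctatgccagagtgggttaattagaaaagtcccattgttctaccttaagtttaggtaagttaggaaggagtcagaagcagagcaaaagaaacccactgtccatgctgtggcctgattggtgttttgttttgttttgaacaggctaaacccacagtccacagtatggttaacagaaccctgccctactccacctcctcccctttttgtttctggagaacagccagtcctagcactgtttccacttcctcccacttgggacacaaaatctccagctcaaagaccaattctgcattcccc
The Bex1 window held 2 overlapping matches to the PLAG1 consensus, at bases 192 to 207 and 204 to 220 of the window, and the windows of Gprasp2 and Sult1a1 held 0 on either strand. Of all 32851 windows, 19.2% held at least 1 such match. The STAT motif TTCNNNGAA had 0 matches in the 3 windows, against 8.3% of all windows. The windows also differed in CpG dinucleotides, with 8 in Bex1, 14 in Gprasp2 and 0 in Sult1a1. A match is a run of letters and not evidence of binding.

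The genes beside the 7 were tested, since the choice did not rest on them. For limma with all 9 arrays, 10 of 22180 genes (0.0451%) passed an adjusted p under 0.05 for Jak2VF_Ezh2KO against Jak2VF, and 5 (0.0225%) for Jak2VF_Ezh2KO against WT. Under the alternatives these counts ran from 0 to 19 and from 0 to 14. For Jak2VF against WT 0 passed (0.0%), with 1034 genes (4.66%) at an unadjusted p under 0.05. Of 57 measured neighbours, up to 5 on each side of each member, 0 passed in any of the 3 comparisons. At an unadjusted p under 0.05, 7 were higher and 2 lower in Jak2VF_Ezh2KO than in Jak2VF, against 2.91% and 3.99% of all genes. Of the 7, Bex2, Bex3, Bex4 and Tceal9 belong with Bex1 to the Bex and Tceal family on the X chromosome. Calb1, also of the 7, read only 3.49 to 4.03. The medians of the 57 neighbours were -0.02 for Jak2VF_Ezh2KO minus Jak2VF and 0.03 for Jak2VF minus WT, close to the medians of all genes.

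Around Plag1 and Chchd7, 10 neighbours ranged from -0.51 to 0.88 with a median of -0.04 for Jak2VF_Ezh2KO minus Jak2VF, and from -0.27 to 0.38 with a median of 0.01 for Jak2VF minus WT. Mos, the kinase gene next to Plag1 on the other side, had -0.05 and -0.15 in these comparisons, and Sdr16c5, next to Chchd7, had 0.06 and -0.02. Rps20, a ribosomal protein gene, had 0.11 and -0.10, Sdr16c6 had -0.19 and 0.20, and Penk, the proenkephalin gene, had -0.07 and -0.06. Bpnt2 had 0.09 and 0.30, and Tgs1, which trimethylates RNA caps, had -0.51 (adjusted p = 0.587) and 0.38. The RIKEN transcript 6330407A03Rik, singled out after its values were seen, had 6.11, 6.62 and 6.38 in Jak2VF_Ezh2KO, 5.56, 5.42 and 5.50 in Jak2VF, and 5.62, 5.80 and 5.87 in WT. Its 3 groups did not overlap and it had the order of Chchd7, but its difference of 0.88 ± 0.15 (SE) between Jak2VF_Ezh2KO and Jak2VF did not pass in limma (adjusted p = 0.134). It was 1 of 3 neighbours, with Necab1 beside Gm11837 and Prame near Gprasp2, whose Jak2VF arrays were below all others, against 0.64% of all genes. Necab1 (4.21 to 4.83) and Prame (4.51 to 5.29) were dim beside a median of 5.76 over all genes. Their Jak2VF arrays were below the other groups by gaps of only 0.03 to 0.07.

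Beside Lst1, Ltb, which encodes lymphotoxin beta, had 8.28, 8.30 and 8.88 in Jak2VF_Ezh2KO, 7.01, 6.88 and 7.80 in Jak2VF, and 7.78, 7.58 and 7.09 in WT. Ltb shared the high signal in Jak2VF_Ezh2KO, but its Jak2VF and WT arrays overlapped and its difference of 1.26 from Jak2VF did not pass in limma (adjusted p = 0.310). Aif1, a calcium-binding protein of macrophages on the other side of Lst1, had -0.74 for Jak2VF minus WT and 0.32 for Jak2VF_Ezh2KO minus Jak2VF, neither of which passed.

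Bex1 and Gprasp2 are 14 annotated genes apart on the X chromosome, 7 of them measured. Between them lie Bex2 and Bex4, of the same family as Bex1, and Bex2 had 7.32, 6.66 and 7.45 in Jak2VF_Ezh2KO, 4.93, 6.18 and 5.72 in Jak2VF, and 6.18, 5.53 and 6.18 in WT. Bex2 was higher on all 3 Jak2VF_Ezh2KO arrays and overlapped between Jak2VF and WT. The differences for Jak2VF_Ezh2KO minus Jak2VF were 1.53 in Bex2 (adjusted p = 0.292) and 1.53 in Bex4 (adjusted p = 0.468), and for Jak2VF minus WT -0.35 and -0.17. Neither passed in limma, and Bex3 had 0.32 and -0.06. With the Y-linked signal of each array as a covariate, the difference for Jak2VF_Ezh2KO minus Jak2VF was 0.82 in Bex1 and 0.75 in Gprasp2, against 0.83 and 1.09 without it.

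**Figure D3:**
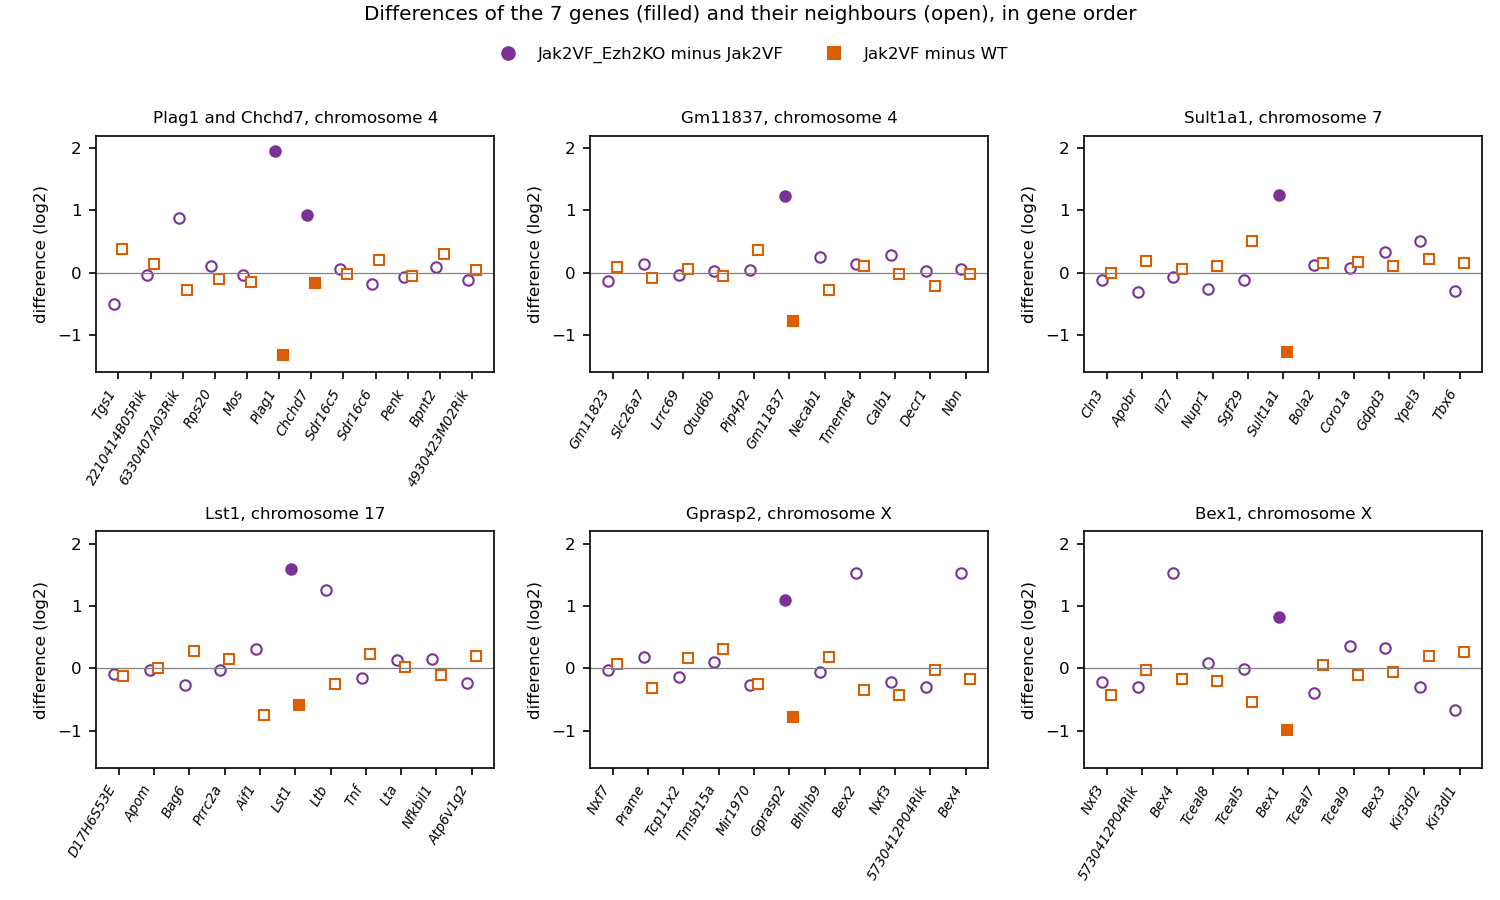
Differences on the log2 scale (y axes) of the 7 genes (filled) and up to 5 measured neighbours on each side (open), in gene order along the x axes and not to genomic scale. Circles are Jak2VF_Ezh2KO minus Jak2VF and squares Jak2VF minus WT. The neighbours of Plag1 and Chchd7 lie between -0.51 and 0.88 for the circles, and Bex2, Bex4 and Ltb stand high beside Gprasp2, Bex1 and Lst1.

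Relatives of the 7 genes by family or role were read from lists, and in each of the lists below 0 genes passed in any of the 3 comparisons. These lists were chosen with earlier results of these data known, so their shares are descriptions. The other PLAG factors, Plagl1 and Plagl2, had 0.01 and -0.13 for Jak2VF_Ezh2KO minus Jak2VF and -0.32 and 0.03 for Jak2VF minus WT, so neither had the size of the Plag1 differences. Of 18 growth genes linked to Plag1, 13 were measured, with medians of 0.00 and -0.04 in these comparisons. Igf2r, which clears the growth factor IGF2, had 5.84, 5.93 and 5.89 in Jak2VF_Ezh2KO, 5.30, 5.63 and 5.72 in Jak2VF, and 5.91, 5.93 and 6.01 in WT. It was the 1 gene of the 13 with all Jak2VF arrays below the rest, against 0.64% of all genes. Its differences were 0.34 (adjusted p = 0.683) and -0.40 (adjusted p = 0.924) in limma. Lin28b, an RNA-binding protein of fetal stem cells, had 0.44 for Jak2VF_Ezh2KO minus Jak2VF (adjusted p = 0.711).

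Among 19 other genes of the CHCH family and the mitochondrial intermembrane space, 16 had a positive difference for Jak2VF_Ezh2KO minus Jak2VF, with a median of 0.34 beside -0.04 for all genes. At an unadjusted p under 0.05, 6 were higher and 1 lower, against 2.91% and 3.99% of all genes. Chchd10 had 8.31, 8.20 and 8.91 in Jak2VF_Ezh2KO, 6.93, 7.77 and 6.74 in Jak2VF, and 7.25, 7.51 and 7.30 in WT, a difference of 1.33 from Jak2VF (limma, adjusted p = 0.253). Coa5, a cytochrome c oxidase assembly factor, ran the other way at -0.86 (adjusted p = 0.317). For Jak2VF minus WT the list's median was 0.07, beside 0.03 for all genes.

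In the Bex and Tceal family 11 other genes were measured, with medians of -0.01 for Jak2VF_Ezh2KO minus Jak2VF and -0.17 for Jak2VF minus WT, and Bex6 went against Bex1 at -1.22 and 0.91. The 7 other Gprasp and Armcx genes had medians of 0.09 and 0.02. The 13 other sulfotransferase and sulfate donor genes had medians of 0.01 and 0.02 and stayed between -0.29 and 0.31 for Jak2VF_Ezh2KO minus Jak2VF, against 1.25 for Sult1a1. The 10 other leukocyte genes of the MHC class III region had medians of -0.02 and 0.09, with Ltb the highest.

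The list of stem cell genes holds Sult1a1 and Gprasp2, and 23 of its other genes were measured. For Jak2VF_Ezh2KO minus Jak2VF 18 of 23 had a positive difference with a median of 0.22, and for Jak2VF minus WT 17 of 23 had a negative one with a median of -0.20. In 5 of the 23, namely Procr, Mecom, Mllt3, Ndn and Emcn, every Jak2VF array was below every other array, against 0.64% of all genes. The list was chosen with earlier results of these data known, so no enrichment is read from this share. The gap was only 0.003 between Jak2VF and Jak2VF_Ezh2KO in Mecom, and 0.02 from each other group in Ndn. Procr, Mecom, Hlf, Slamf1 and Fgd5 are also among the markers of long-term stem cells given above, so the 2 readings share genes. Procr, the endothelial protein C receptor used as a stem cell marker, had 7.96, 8.19 and 7.99 in Jak2VF_Ezh2KO, 7.25, 7.01 and 7.18 in Jak2VF, and 7.97, 7.57 and 7.81 in WT. Its difference between Jak2VF_Ezh2KO and Jak2VF was 0.90 ± 0.14 (SE; limma, adjusted p = 0.0941), and Procr passed when the genes dimmer than the median were left out of the fit. Mecom, a transcription factor that stem cells need, had a difference of -0.71 for Jak2VF minus WT (adjusted p = 0.863) and 0.31 for Jak2VF_Ezh2KO minus Jak2VF, and it stayed below WT by 0.40 in Jak2VF_Ezh2KO. Mllt3, a chromatin reader, had -0.56 and 0.35 in these comparisons, and Emcn had -1.40 (adjusted p = 0.589) and 1.10 (adjusted p = 0.335).

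The 15 measured STAT targets had medians of -0.06 for Jak2VF_Ezh2KO minus Jak2VF and 0.16 for Jak2VF minus WT. Cish, a feedback inhibitor of cytokine signalling, had 7.91, 8.88 and 8.47 in Jak2VF_Ezh2KO, 6.61, 7.59 and 7.43 in Jak2VF, and 7.85, 7.46 and 7.17 in WT. It was above all other arrays in Jak2VF_Ezh2KO, with a difference of 1.21 from Jak2VF (limma, adjusted p = 0.390), and overlapped between Jak2VF and WT. Pim1, a kinase induced by STAT5, had 0.88 for Jak2VF minus WT and -0.29 for Jak2VF_Ezh2KO minus Jak2VF. The 11 PRC2 subunits, Ezh2 included, had medians of -0.01 and 0.07. Jak2 itself read 7.93, 7.90 and 7.66 in Jak2VF_Ezh2KO, 8.23, 8.52 and 8.11 in Jak2VF, and 7.91, 8.11 and 8.09 in WT, with differences of -0.46 (adjusted p = 0.539) and 0.25 (adjusted p = 0.924) in limma.

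**Figure D4:**
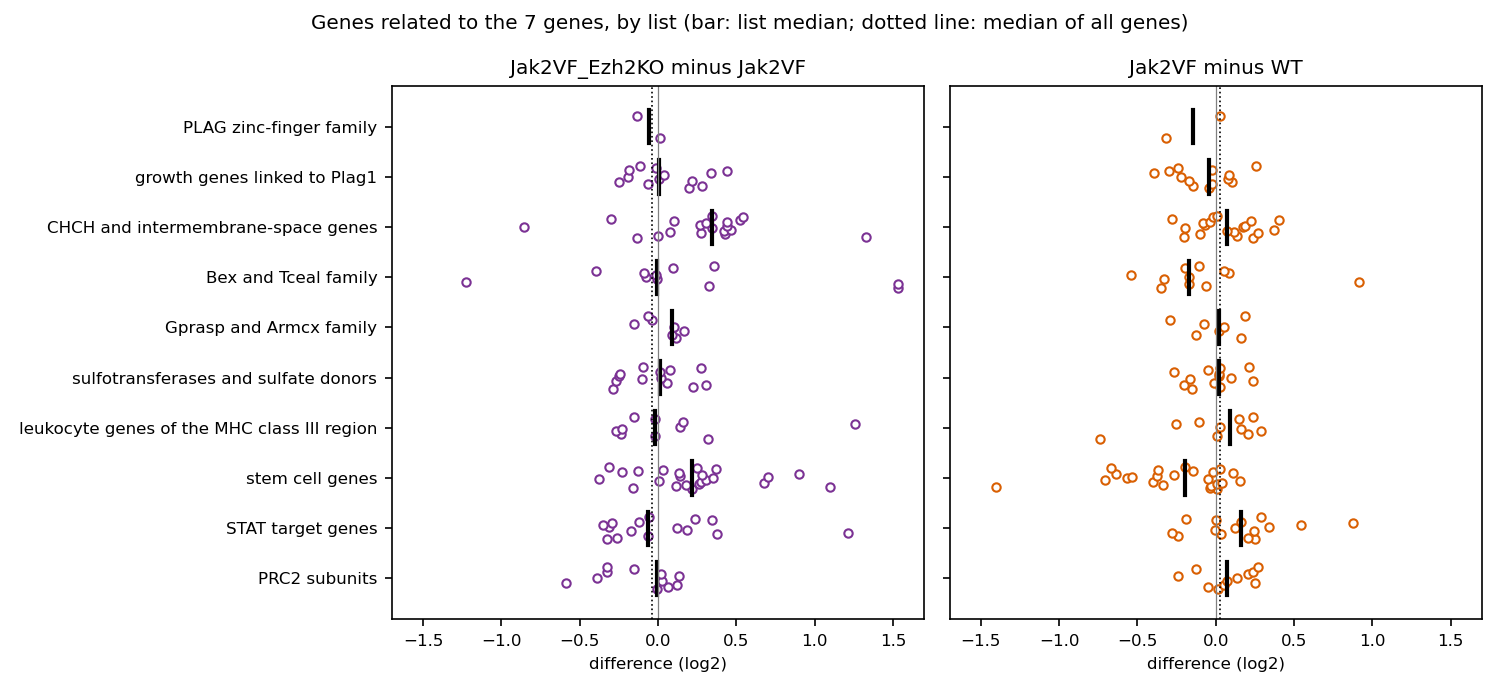
Differences on the log2 scale (x axes) of the genes related to the 7, by list (y axis), for Jak2VF_Ezh2KO minus Jak2VF and for Jak2VF minus WT. Circles are single genes without the 7 themselves, bars the list medians and dotted lines the medians of all genes (-0.04 and 0.03). The stem cell genes have medians of 0.22 and -0.20, and 0 genes of any list passed.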

How the data were processed

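Expression was measured on 9 arrays of sorted stem cells, 3 per group. The table deposited by the authors holds log2 values of 41345 probe sets. The submitters' processing notes name Partek 6.6, while background correction, normalization and array build were not given in the sources read. Values were used as deposited. Array medians lay between 5.51 and 5.67 and pairwise correlations between 0.898 and 0.968.

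Platform annotation gave 1 symbol to 23521 probe sets, several to 1814 and none to 16010. The probe set with the highest mean over 9 arrays stood for each of 1082 genes with several, leaving 22180 genes. One fit of all 9 arrays in R 4.3.3 with limma 3.58.1 (lmFit, then eBayes, with 6 residual and 3.83 prior degrees of freedom) gave differences and Benjamini-Hochberg adjusted p-values over all genes, which are printed only for genes outside the 7. On simulated data for Jak2VF against WT (22180 genes) it called 64% of 100 genes shifted by 1 (log2) and 91% of 100 shifted by 2, and 3 of its 158 calls were unshifted genes. The simulated noise was normal and independent between genes, with no effect shared by the genes of an array. These shares check the code and do not give the recovery in the real arrays. Gene order and promoters came from RefSeq (GRCm38.p6).

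The 7 genes and the lists were chosen with earlier results of these data known. Named genes were the 7, Ezh2 and Jak2, up to 4 genes per list and comparison by smallest p, all neighbours of Plag1 and Chchd7 and up to 2 by p elsewhere, the 10 genes most like Plag1, and the 5 highest outside the group. Outside the 7, receptors of smell (olfactory, vomeronasal), small RNAs, RIKEN clones and predicted genes entered the counts without being named, except 6330407A03Rik, which was singled out after its values were seen. Some further neighbours, list genes and markers were named with their values in view. The alternatives tried were an intensity trend with robust moderation, quantile normalization, median centring, the dimmer part of the genes (below the median) left out, the mean of a gene's probe sets, array weights, the replicate number as a block, the Y-linked signal as a covariate, and each array left out.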

Additional observations from a re-analysis of the deposited data

How the results depend on the processing

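Of 168 values of the 7 genes under 8 alternatives that kept all arrays, 161 moved by less than 1 SD between replicates, as did all 189 values with 1 array left out. Many of these values could not move, so the counts overstate stability. An intensity trend, the dimmer genes left out and the replicate block change no difference of means here. The mean of probe sets changes only Gprasp2. Leaving out an array changes no difference between the groups that kept all their arrays. The sign turned in 2 of the 168 and 2 of the 189, all for Jak2VF_Ezh2KO minus WT. These were Gprasp2 with the Y-linked covariate and Sult1a1 with median centring (0.0095), without WT replicate 3 (0.14) and without Jak2VF_Ezh2KO replicate 3 (0.052). The 7 that moved further came with the Y-linked signal as a covariate, a fit that for Jak2VF_Ezh2KO rests mainly on replicate 3. For Jak2VF_Ezh2KO minus Jak2VF it gave 2.29 in Plag1, 1.03 in Chchd7 and 1.04 in Gm11837, and for Jak2VF_Ezh2KO minus WT 0.99 in Plag1, 0.88 in Chchd7, 0.24 in Gm11837 and -0.053 in Gprasp2. With 1 array left out, Plag1 ranged from 1.77 to 2.19 for Jak2VF_Ezh2KO minus Jak2VF and Gprasp2 from -1.06 to -0.50 for Jak2VF minus WT, the value nearest 0 without Jak2VF replicate 1. Quantile normalization put Chchd7 at position 591 and Bex1 at 7, and the mean of both probe sets put Gprasp2 at 71. The count of genes passing for Jak2VF_Ezh2KO against Jak2VF (10) was 4 with median centring, 19 without the genes dimmer than the median, 4 with the Y-linked covariate, and 0 to 17 with 1 array left out. It was 0 without any 1 of the Jak2VF replicates or Jak2VF_Ezh2KO replicate 2, and 17 without Jak2VF_Ezh2KO replicate 3. That array was the only one of Jak2VF_Ezh2KO without Y-linked signal. Without it sex and genotype cannot be told apart, in the comparison with WT as well. For Jak2VF_Ezh2KO against WT (5) it was 10 with an intensity trend, 3 with median centring, 14 with array weights, 2 with the Y-linked covariate, and 0 to 14 with 1 array left out. Without the genes dimmer than the median 1 stem cell gene, Procr, passed for Jak2VF_Ezh2KO against Jak2VF (0.90), where fewer genes were tested. With the replicate number as a block, 0 genes passed in both comparisons. The labels give each group the same replicate numbers, but deviations of same-numbered arrays correlated at -0.23 to 0.48 and only 2 of 9 pairs exceeded 0.1, so the numbers were not taken to pair the samples. Other causes of these changes were not tested. With 3 arrays per group, a missed threshold does not show that groups were alike.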
